A study of Mus musculus with 32 samples.

Results

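Of 215616 factor peaks mapped in a pair of mouse lymphoid cell lines, 15517 (7.20%) had a centre annotated in an LTR retroelement, and these are the peaks described here. A peak was taken when the repeat class in its deposited HOMER annotation was LTR, which leaves the score, the factor and the line out of the choice. The 15517 peaks came from 8 lists, 1 per line for each of 4 factors (Runx1, Runx3, GATA3 and Bcl11b), and merged to 8434 distinct intervals, since lists overlap.

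The lines were Scid.adh.2c2, an established early T-lineage (pro-T-like) line, and ILC2/b6, an established line of group 2 innate lymphoid cells cultured with the cytokines IL-33, IL-7 and IL-2, each 10 ng/ml. Of the 32 libraries, 16 were ChIP-seq (2 per factor and line, with cells not described as perturbed), 8 were input chromatin and 8 were RNA-seq. RNA came from each line transduced with a CFP-marked guide against Bcl11b or with a CFP-marked control guide, 2 libraries per group; the study compares the action of Bcl11b between these lineages. Each line is one culture model, nothing in the labels says that replicates came from separate cultures, and p-values then measure only the spread between these libraries. The input libraries carry the labels FA or DSG, and the sources used here do not say which fixation went with which factor, so fixation, antibody and factor cannot be told apart. In all 4 Scid.adh.2c2 RNA libraries 8 of 8 early T-cell markers, among them Ptcra, Rag1 and Thy1, lay at or above 1 RPKM (reads per kilobase of gene per M mapped reads). In ILC2/b6 8 of 8 ILC2 markers did, among them Il1rl1, Il13 and Areg, against 3 of 8 in Scid.adh.2c2. RNA depth, read from the step of 1 read in the values, was 34.7 to 43.7 M reads.

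LTR retroelements are copies of retroviruses and their relatives. An intact copy carries the same long terminal repeat (LTR) at both ends of an internal coding part, the LTR holds the element's own promoter and factor sites, and recombination often leaves a lone LTR. RepeatMasker names such elements by family (MaLR, the mammalian apparent LTR retrotransposons, with the ORR1 and MT elements; ERVL, ERVK and ERV1) and adds "int" to the name of an internal part. In lymphocytes, LTR copies are known to serve in places as enhancers or promoters, and Bcl11b, Runx1, Runx3 and GATA3 are DNA-binding regulators of T cells and ILC2.

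Promoter sequence is shown for the genes where an LTR peak lay next to a transcription start, since only promoter windows were available here, and sequence of the distal peaks was not analysed. In Scid.adh.2c2, 12 Bcl11b peaks lay in RMER17B elements within 1 kb of a start, all on chromosome 2 in a cluster of predicted and zinc-finger genes. The 250 bases before the start of 4 of those genes (RefSeq, build GRCm38.p6, 5′ to 3′ on the gene's strand) are given with the 54-base run common to all 4 in capitals.
Gm6710: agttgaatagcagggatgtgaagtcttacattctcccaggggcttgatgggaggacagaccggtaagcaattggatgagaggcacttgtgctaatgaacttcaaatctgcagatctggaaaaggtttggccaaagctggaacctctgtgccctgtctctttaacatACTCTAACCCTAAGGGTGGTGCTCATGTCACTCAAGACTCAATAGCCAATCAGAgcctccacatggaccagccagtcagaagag
Gm14325: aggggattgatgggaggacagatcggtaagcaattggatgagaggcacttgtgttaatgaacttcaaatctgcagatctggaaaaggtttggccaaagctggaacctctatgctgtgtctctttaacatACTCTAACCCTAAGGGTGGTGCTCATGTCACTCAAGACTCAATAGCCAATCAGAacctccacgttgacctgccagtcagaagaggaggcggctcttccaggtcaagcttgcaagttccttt
Gm14326: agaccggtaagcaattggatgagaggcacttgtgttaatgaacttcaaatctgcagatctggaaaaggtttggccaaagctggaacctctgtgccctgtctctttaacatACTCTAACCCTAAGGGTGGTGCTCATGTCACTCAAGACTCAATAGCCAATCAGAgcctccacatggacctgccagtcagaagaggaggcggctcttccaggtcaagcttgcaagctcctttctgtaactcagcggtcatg
Zfp971: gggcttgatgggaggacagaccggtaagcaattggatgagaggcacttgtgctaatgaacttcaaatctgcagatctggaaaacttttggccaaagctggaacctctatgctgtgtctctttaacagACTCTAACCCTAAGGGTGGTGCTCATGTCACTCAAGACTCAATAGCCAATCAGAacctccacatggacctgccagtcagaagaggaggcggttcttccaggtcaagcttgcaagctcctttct

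The 4 windows, with the 50 bases after the start included, were 95.8% to 99.2% identical over the 244 to 298 bases that align without gaps in the 6 pairs. The 54-base run occurred in 28 promoter windows of 26 genes, all on chromosome 2, among 32851 windows in the table; 6 of the 8 genes named beside the 12 peaks had a window. Naip5, a cytosolic sensor of bacterial flagellin, has a GATA3 peak of Scid.adh.2c2 in an ORR1E element 109 bp past its start. A GATA3 peak of ILC2/b6 overlapped it. In ILC2/b6 ORR1E also held a Runx1 peak 161 bp past the start (score 16.6) and a Runx3 peak at 164 bp (score 25.6). The 250 bases before the Naip5 start are given with the 50 bases next to the start in capitals.
Naip5: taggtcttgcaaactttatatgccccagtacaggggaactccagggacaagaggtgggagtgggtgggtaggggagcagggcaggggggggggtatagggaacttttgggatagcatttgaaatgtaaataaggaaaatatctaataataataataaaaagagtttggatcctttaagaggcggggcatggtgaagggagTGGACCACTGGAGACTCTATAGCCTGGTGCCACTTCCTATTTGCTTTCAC

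Words for the Runx factors (the word TGTGGT and the word TGCGGT) and for GATA3 (the word AGATAA, the word AGATAG, the word TGATAA and the word TGATAG) were searched on both strands, and no word lies inside another. None of these 5 windows held one. Among all windows of this length, 18.6% held a Runx word and 26.5% a GATA word. A missing word says only that these letters are not in the 250 bases shown; the peaks themselves lay after the start.

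GATA3 had the largest share of its peaks in LTR elements in both lines, but this was not particular to LTR elements. In the repeat class LINE the GATA3 shares were 10.4% in Scid.adh.2c2 and 8.08% in ILC2/b6, against 1.59% to 3.84% in the other lists. In the class SINE they were 8.91% and 7.90%, against 2.25% to 3.69%. The rest of this paragraph gives LTR shares. The share was 10.2% in Scid.adh.2c2 (3780 of 36973 peaks) and 10.1% in ILC2/b6 (3414 of 33709). For Bcl11b it was 4.22% in Scid.adh.2c2 (755 of 17874) and 5.37% in ILC2/b6 (1163 of 21677). For Runx1 it was 4.65% (635 of 13664) and 6.12% (1608 of 26258), and for Runx3 5.50% (1129 of 20523) and 6.75% (3033 of 44938). Each list was made by the authors from 2 libraries together, so the shares have no replicates and no test. Their 95% Wilson intervals, which cover counting error only, did not overlap between the lines for Bcl11b, Runx1 and Runx3, and overlapped for GATA3.

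Few LTR peaks, between 3 and 16 per list, were annotated within 1 kb of a transcription start site (TSS). Every LTR peak was annotated as intron or intergenic, such as 258 and 497 of 755 for Bcl11b in Scid.adh.2c2. Those within 1 kb of a TSS were all intron peaks past the start. Peaks with any other gene annotation carried no LTR label, so these low counts do not measure how often LTR elements lie at starts. Peaks of any annotation within 1 kb of a TSS made up 43.8%, 44.3% and 37.4% of the Bcl11b, Runx1 and Runx3 lists in Scid.adh.2c2. In ILC2/b6 they made up 33.6%, 25.8% and 24.8% of these lists, and in the GATA3 lists 4.28% and 6.58%. Among peaks over 1 kb from a TSS, called distal here, the LTR shares of the lines were close: 7.36% and 8.02% for Bcl11b, 8.30% and 8.22% for Runx1, 8.75% and 8.94% for Runx3, and 10.7% and 10.8% for GATA3, Scid.adh.2c2 first. The intervals of the lines overlapped for all 4 factors on this basis, and GATA3 kept the highest share.

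**Figure D1:**
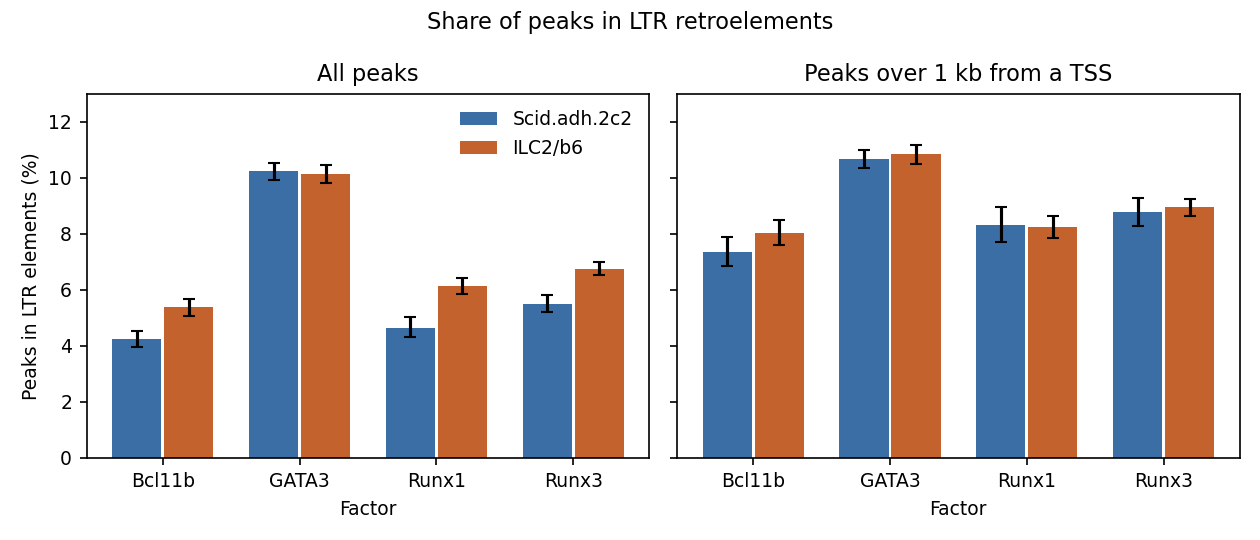
Percent of peaks in LTR elements by factor and line, over all peaks (left) and over peaks more than 1 kb from a TSS (right); bars are shares and whiskers 95% Wilson intervals. GATA3 stands at 10.2% and 10.1% on the left, and the other factors rise to between 7.36% and 8.94% on the right.

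LTR peaks lay outside genes more often than distal peaks in no annotated repeat. For Bcl11b, 65.8% of LTR peaks were intergenic in Scid.adh.2c2 against 51.0% of non-repeat distal peaks, and 61.5% against 43.0% in ILC2/b6. The largest gap was in GATA3 in ILC2/b6, with 67.2% against 44.9%. The authors' peak scores were a little lower in LTR elements: the median was 25.6 against 26.5 for Bcl11b in Scid.adh.2c2, 25.7 against 27.6 in ILC2/b6, and 35.1 against 40.0 for Runx3 in ILC2/b6. A score is the caller's own value and is compared only within its list.

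The families differed between GATA3 and the other factors. MaLR elements held 50.9% and 53.2% of Bcl11b LTR peaks, 53.9% and 55.7% of Runx1 peaks and 52.6% and 58.6% of Runx3 peaks, Scid.adh.2c2 first. In the GATA3 lists MaLR held 25.7% and 28.2%, while ERVL held 31.7% and 33.7% and ERVK 34.7% and 28.0%. Most of the ERVL peaks lay in a single element, MT2_Mm, described below. It held 924 of the 1197 GATA3 ERVL peaks in Scid.adh.2c2 and 880 of the 1152 in ILC2/b6. The element with most peaks in each Bcl11b and Runx list was ORR1E, a MaLR LTR: 71 and 85 peaks for Bcl11b, 69 and 124 for Runx1, and 103 and 236 for Runx3.

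**Figure D2:**
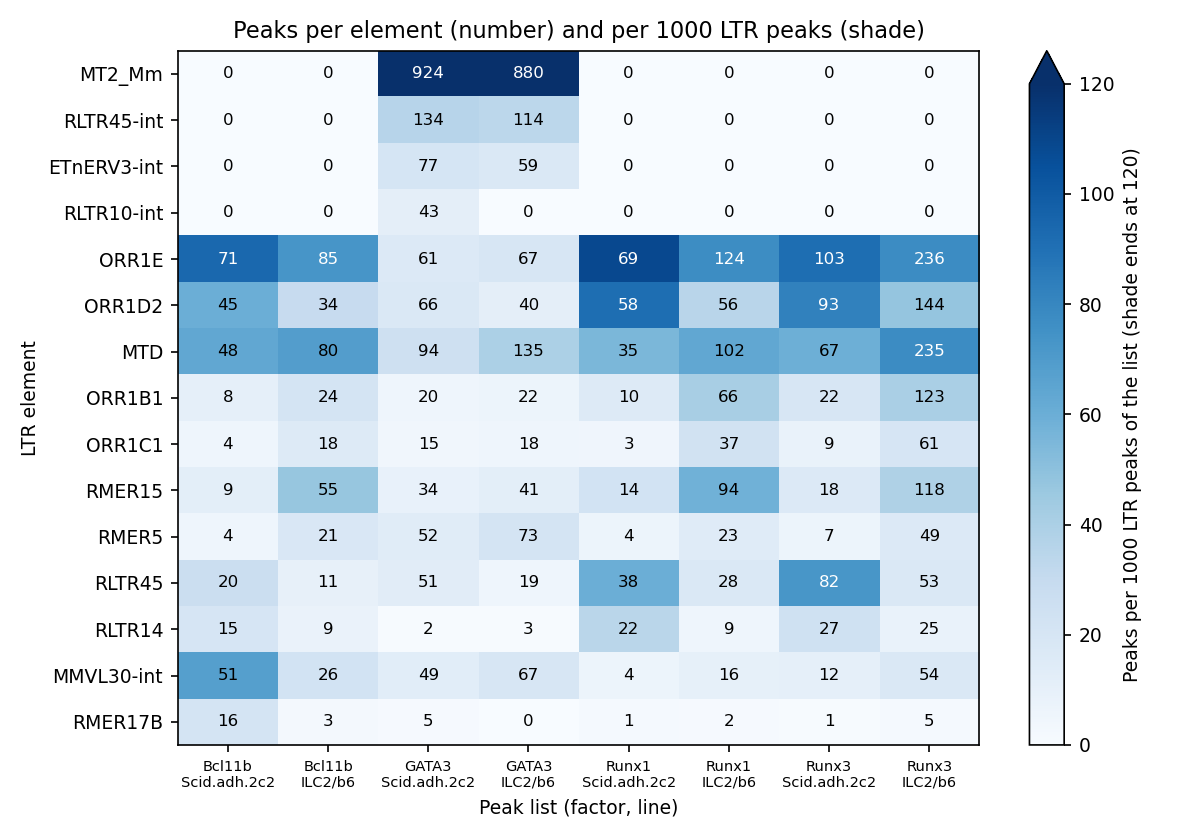
Number of peaks (printed) in each of 15 LTR elements (rows) in the 8 lists (columns); the shade gives peaks per 1000 LTR peaks of that list and ends at 120. MT2_Mm, with 924 and 880 peaks, is filled only in the GATA3 columns, and ORR1E is filled in all 8.

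One element stood out in the GATA3 lists. MT2_Mm, the LTR of the mouse retrovirus MERVL, held 924 GATA3 peaks in Scid.adh.2c2 (24.4% of the LTR peaks) and 880 in ILC2/b6 (25.8%). It held 0 peaks in each of the 6 Bcl11b, Runx1 and Runx3 lists. Of the GATA3 MT2_Mm peaks, 0 in Scid.adh.2c2 and 1 in ILC2/b6 overlapped a peak of another factor in the same line. Peaks in simple repeats were also frequent in the GATA3 lists, at 12.1% and 6.59% of all peaks against at most 0.975% in the other lists; the part of repeat mapping in the MT2_Mm peaks was not tested, and the sources used here do not say how reads that fit several copies were placed.

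The 2 lines shared most MT2_Mm peaks. By an overlap of at least 1 bp, 740 were common, which is 80.1% of those in Scid.adh.2c2 and 84.1% of those in ILC2/b6. The common peaks had the higher scores: a median of 31.5 against 18.4 for those in Scid.adh.2c2 alone, and 26.3 against 19.8 in ILC2/b6. Over all GATA3 MT2_Mm peaks the median distance to the nearest TSS was 53.2 kb and 53.4 kb, and over the common ones 54.0 kb and 55.5 kb. The internal part of the same virus, MERVL-int, held 6 and 7 GATA3 peaks.

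Where 2 MT2_Mm peaks lay close together, they were mostly at one distance. In Scid.adh.2c2, the 924 MT2_Mm peaks gave 121 neighbouring pairs within 10 kb, and 99 of these pairs (81.8%) were 5.5 to 6.5 kb apart. In ILC2/b6, with 880 peaks, 116 of 136 pairs (85.3%) were. Most MT2_Mm peaks were thus in no such pair. Among the pairs in this range alone, the median spacing was 5942 bp and 5969.5 bp. The other elements with at least 50 GATA3 peaks in a list had at most 7 pairs within 10 kb. None of these pairs was 5.5 to 6.5 kb apart, but they are too few for a comparison. Within such a pair the higher score was a median of 1.21 times the lower in both lines, and 77.8% and 83.6% of pairs differed by less than 1.5 times.

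**Figure D3:**
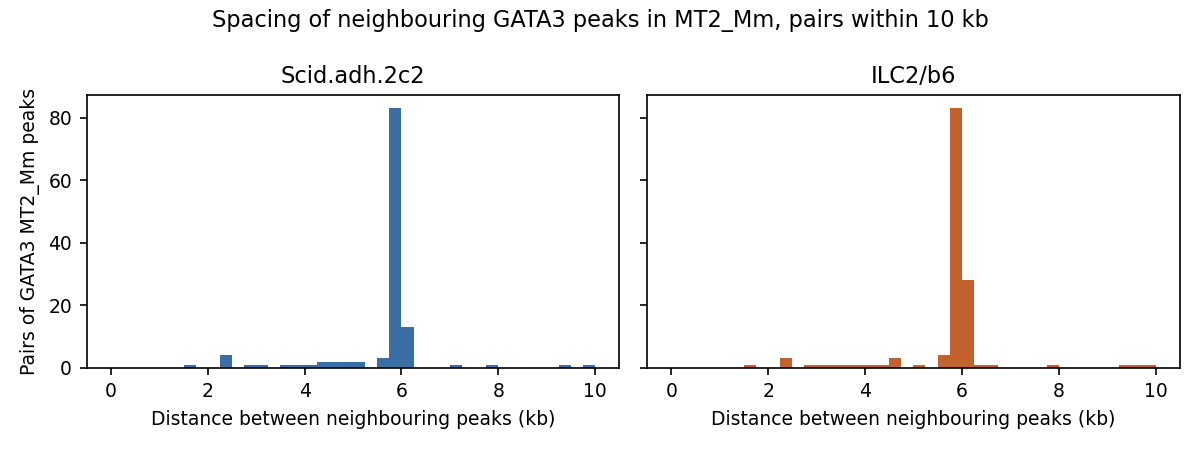
Distance in kb between neighbouring GATA3 peaks in MT2_Mm elements (x) and number of pairs (y), for pairs within 10 kb in each line. Of 121 pairs in Scid.adh.2c2 and 136 in ILC2/b6, 99 and 116 fall between 5.5 and 6.5 kb.

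RLTR45-int, ETnERV3-int and RLTR10-int also held GATA3 peaks and 0 peaks of the other factors. RLTR45-int, an ERVK internal part, had 134 and 114 peaks, of which 112 in Scid.adh.2c2 (83.6%) and 111 in ILC2/b6 (97.4%) were common to the lines. ETnERV3-int, an internal part related to the early transposons, had 77 and 59, with 54 common in each. RLTR10-int had 43 GATA3 peaks in Scid.adh.2c2 and 0 of 3414 in ILC2/b6, where a count of 0 allows a share of up to 0.0879% of LTR peaks (3 counts of 3414). IAPEY3-int had 20 GATA3 peaks against 2 and RLTR13D2 33 against 6, Scid.adh.2c2 first. Peaks of the other factors in IAPEY3-int and RLTR13D2 are not given here.

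Several elements took different shares of the Bcl11b and Runx peaks in the 2 lines. RMER15, an ERVL-family LTR, took a higher share in ILC2/b6 for Bcl11b and both Runx factors. It held 9 Bcl11b peaks in Scid.adh.2c2 and 55 in ILC2/b6, a share of LTR peaks 3.97 times as high in ILC2/b6 (95% interval 1.97 to 7.98). For Runx1 the numbers were 14 and 94 (2.65 times, 1.52 to 4.61), and for Runx3 18 and 118 (2.44 times, 1.49 to 3.99). For GATA3 they were 34 and 41 (1.34 times, 0.849 to 2.10), an interval that includes 1. Bcl11b and Runx peaks often cover the same copies, so these factors are not separate evidence.

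ORR1C1 was also higher in ILC2/b6, with 3 and 37 Runx1 peaks (4.87 times, 1.51 to 15.7) and 9 and 61 Runx3 peaks (2.52 times, 1.26 to 5.06). ORR1B1 had 10 and 66 Runx1 peaks (2.61 times, 1.35 to 5.04). RMER5 had 4 and 21 Bcl11b peaks (3.41 times, 1.17 to 9.89). These are single lists, and the intervals cover counting error only and are not adjusted for the number of elements compared, which was 26 for Bcl11b, 78 for GATA3, 23 for Runx1 and 39 for Runx3.

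On the Scid.adh.2c2 side stood RLTR45, RLTR14, ORR1D2 and, for Bcl11b, MMVL30-int. RLTR45 held 82 Runx3 peaks in Scid.adh.2c2 and 53 in ILC2/b6, a share 4.16 times as high in Scid.adh.2c2 (2.96 to 5.83). Its Runx1 peaks were 38 and 28 (3.44 times, 2.13 to 5.55) and its Bcl11b peaks 20 and 11 (2.80 times, 1.35 to 5.81). RLTR14 held 22 and 9 Runx1 peaks (6.19 times, 2.87 to 13.4). MMVL30-int, the internal part of the VL30 retrotransposons, held 51 and 26 Bcl11b peaks (3.02 times, 1.90 to 4.80), but this held for Bcl11b alone. Its GATA3 peaks were 49 and 67, a share 1.51 times as high in ILC2/b6 (1.05 to 2.18), its Runx3 peaks 12 and 54 (1.68 times, 0.899 to 3.12) and its Runx1 peaks 4 and 16 (1.58 times, 0.530 to 4.71). ORR1D2 held 58 and 56 Runx1 peaks (2.62 times, 1.84 to 3.74).

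Sharing between lines was measured by overlap of at least 1 bp with a peak of the same factor. LTR peaks of Bcl11b and the Runx factors were shared at or below the rate of distal non-repeat peaks. For Bcl11b, 25.2% of Scid.adh.2c2 LTR peaks and 15.6% of ILC2/b6 LTR peaks were shared, against 26.3% and 18.7% of non-repeat peaks. For Runx1 the LTR values were 25.2% and 9.33% against 31.7% and 12.3%, and for Runx3 38.5% and 14.3% against 45.1% and 17.3%. The Wilson intervals of the LTR and non-repeat shares overlapped for Bcl11b in Scid.adh.2c2 and were apart in the other 5 lists.

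GATA3 LTR peaks went the other way, with 53.9% and 59.8% shared against 46.9% and 46.4% of non-repeat peaks. Sharing above non-repeat peaks was not particular to LTR peaks. For GATA3 it was 51.4% and 62.7% in SINE, 38.2% and 53.9% in LINE, and 44.2% and 26.2% in DNA repeats, Scid.adh.2c2 first. Without MT2_Mm the GATA3 LTR values were 45.4% and 51.3%, so in Scid.adh.2c2 the higher sharing was that of MT2_Mm, while in ILC2/b6 a gap to 46.4% remained. In the highest of 4 score bins of each list the order was as in the whole lists: 74.8% against 65.6% and 62.3% against 53.5% for GATA3, and 27.1% against 40.9% for Runx1 in Scid.adh.2c2. For Bcl11b the gap in that bin was small, with overlapping intervals: 34.9% against 37.4% in Scid.adh.2c2 and 25.9% against 27.0% in ILC2/b6. In the lowest bin the Bcl11b values were 17.7% against 16.5% in Scid.adh.2c2, the reverse order, and 11.7% against 13.2% in ILC2/b6. Where a Scid.adh.2c2 LTR peak was shared, the ILC2/b6 peak was annotated as LTR too in 87.9% of cases for Bcl11b, 97.6% for GATA3, 88.1% for Runx1 and 90.3% for Runx3.

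**Figure D4:**
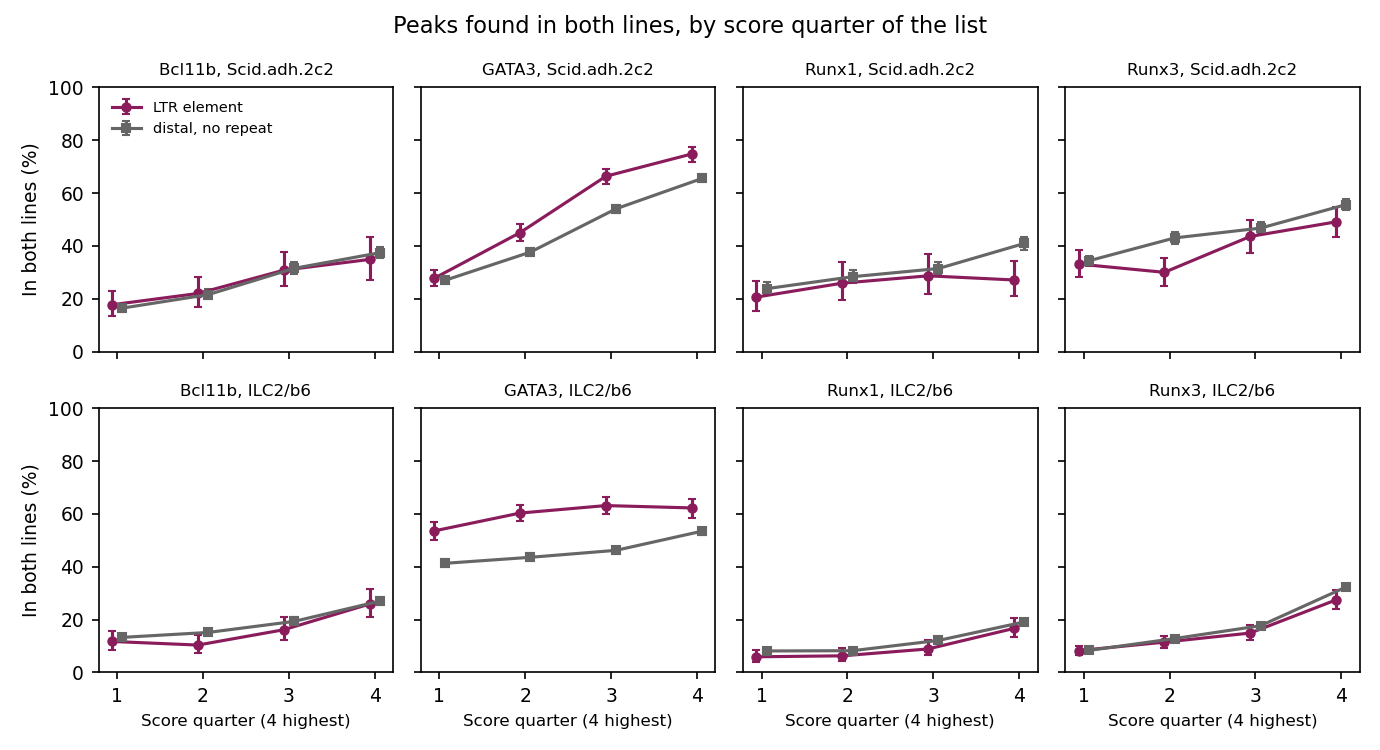
Percent of peaks found in both lines (y) by score bin of the list (x, 4 bins with 4 the highest), for LTR peaks and distal non-repeat peaks; points are shares and whiskers 95% Wilson intervals. In bin 4 the LTR points lie above for GATA3 (74.8% and 62.3%) and below for Runx1 in Scid.adh.2c2 (27.1% against 40.9%).

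Most Bcl11b LTR peaks overlapped a peak of another factor in the same line: 82.5% in Scid.adh.2c2 and 90.7% in ILC2/b6, against 80.5% and 93.5% of distal non-repeat Bcl11b peaks. For Runx1 the LTR values were 99.7% and 95.2%, close to the 99.0% and 95.1% of distal non-repeat Runx1 peaks. For Runx3 they were 69.0% and 62.5%, against 76.2% and 67.7% of non-repeat Runx3 peaks. GATA3 LTR peaks overlapped another factor in 9.68% and 29.0% of cases, against 16.5% and 46.1% of non-repeat GATA3 peaks. Without MT2_Mm these GATA3 values were 12.8% and 39.0%, still below the non-repeat ones. Of the 755 Bcl11b LTR peaks in Scid.adh.2c2, 44 (5.83%) overlapped a peak in all 8 lists, against 488 of 7458 non-repeat peaks (6.54%).

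The 5 of these with the highest mean score rank were an ORR1E element near Tle3, an ERVL-B4-int element, RLTR4_Mm elements at Ly6e and Apobec3, and an LTR33 element near Scn10a (coordinates in build mm9). The ORR1E peak at chr9:61274944-61275180, 54.9 kb from the start of Tle3, a Groucho-family corepressor, scored 63.7 for Bcl11b, 168.3 for GATA3, 75.4 for Runx1 and 139.7 for Runx3 in Scid.adh.2c2. In ILC2/b6 the scores there were 101.3, 198.3, 247.7 and 530.1. The RLTR4_Mm element 21.0 kb before Ly6e, at chr15:74764385-74764621, held all 8 peaks too, with Bcl11b scores of 58.5 and 142.4. The other RLTR4_Mm element lies in an intron of Apobec3, a restriction factor of retroviruses, at chr15:79726222-79726458, and its Bcl11b scores were 45.9 and 139.9. Scores are not compared between lists.

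Some of the highest scores lay in LTR elements inside or beside named genes. The highest Bcl11b LTR peaks in ILC2/b6 were an RLTR19 element 4.21 kb before Dus2, a tRNA dihydrouridine synthase (chr8:108531038-108531292, score 288.7), and an RMER15-int element in an intron of Prex1, a Rac exchange factor (chr2:166533970-166534224, 260.9). In Scid.adh.2c2 the 2 highest were MTC elements at chr12:55815394-55815630 and chr12:55835272-55835508, both assigned to Eapp, with scores of 212.3 and 211.7. The Oas3 intron holds an RLTR11A element that scored 239.2 for Runx1 and 618.8 for Runx3 in Scid.adh.2c2. Oas3 is an interferon-induced sensor of double-stranded RNA.

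Near-equal scores occurred in neighbouring copies. At Coro2a, which encodes an actin-associated coronin, 2 RLTR3_Mm copies, 8554 bp apart by their Scid.adh.2c2 peaks, had GATA3 scores of 307.7 and 307.7 in ILC2/b6, Runx1 scores of 425.5 and 425.5, Runx3 scores of 734.4 and 734.2, and Bcl11b scores of 192.2 and 192.5. Beside each of these ILC2/b6 peaks lay a lower RLTR3_Mm peak of the same factor, such as 128.6 and 133.5 for GATA3. In Scid.adh.2c2 the pair of copies had only GATA3 peaks, with scores of 20.2 and 20.2. In the RMER17B cluster on chromosome 2, the 12 Bcl11b peaks near starts scored 18.3 to 27.1 and lay 125 to 284 bp past the start, and several scores were equal: 19.2 for 3 peaks and 26.8 for 3 others. Among these, the peak at Gm6710 is at chr2:175032114-175032350 and that at Zfp971 at chr2:177758095-177758331. In ILC2/b6 there was 1 such peak, at Zfp971, with a score of 15.3 near the list's minimum of 15. The part of reads that fit more than 1 copy in these equal scores was not tested.

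An RMER15 element shows the ILC2/b6 side at one gene. It lies 1.05 kb before the start of Ly6a, which encodes Sca-1, and held peaks of all 4 factors in ILC2/b6 (Bcl11b at chr15:74829383-74829637, score 39.4; GATA3 136.3; Runx1 213; Runx3 222) and of none in Scid.adh.2c2. Ly6a RNA was 1952 and 2102 RPKM in the ILC2/b6 controls and 2043 and 2070 RPKM with the Bcl11b guide (log2 difference 0.02 ± 0.05 SE, limma adjusted p = 0.791). In Scid.adh.2c2 it was 5.13 and 3.37 RPKM in the controls and 172 and 172 RPKM with the guide, which is 5.21 ± 0.15 on the log2 scale (adjusted p = 2.66e-07). The tables of the lines were normalised separately, and levels across them are given side by side with no test.

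Genes near peaks of 1 line were more often expressed in that line. Among 558 genes within 50 kb of a Bcl11b LTR peak of ILC2/b6 alone, 69.5% and 70.1% had at least 1 RPKM in the 2 ILC2/b6 controls, and 51.4% and 52.2% in the 2 Scid.adh.2c2 controls. Among 279 genes next to a Bcl11b LTR peak of Scid.adh.2c2 alone the values were 59.9% in Scid.adh.2c2 and 50.5% to 50.9% in ILC2/b6. Over all genes they were 42.3% to 42.5% in ILC2/b6 and 40.2% to 40.4% in Scid.adh.2c2. For 729 genes next to a GATA3 LTR peak of Scid.adh.2c2 alone they were 42.0% to 42.2% in Scid.adh.2c2, near all genes, and 36.5% to 37.4% in ILC2/b6. For 661 genes next to a GATA3 LTR peak of ILC2/b6 alone they were 66.6% to 66.7% in ILC2/b6 and 54.0% to 54.5% in Scid.adh.2c2. These are descriptions, with no test.

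No fall of Bcl11b RNA with the Bcl11b guide was called in either line on the deposited scale. In Scid.adh.2c2 it stood at 47.0 and 49.5 RPKM in the controls and 47.1 and 46.8 RPKM with the guide (log2 difference −0.04 ± 0.04 SE, limma adjusted p = 0.455). In ILC2/b6 it was 6.85 and 6.33 RPKM against 7.04 and 7.24 RPKM (0.11 ± 0.06, adjusted p = 0.278). The groups overlapped in Scid.adh.2c2 and did not in ILC2/b6. The Scid.adh.2c2 difference became −0.17 after median-centring and −0.11 after quantile normalisation, and was called under both, so the RNA level does not check the labels.

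Of 10221 genes tested in Scid.adh.2c2, 57.8% were called at an adjusted p under 0.05, and this background sets how the neighbours of LTR peaks are read. Of 283 tested genes within 50 kb of a Bcl11b LTR peak, 181 (64.0%) were called, 119 higher and 62 lower with the guide, and their median log2 difference was 0.11 against 0.05 over all genes. In ILC2/b6, where 14.5% of 10526 genes were called, 113 of 496 neighbours (22.8%) were, 64 higher and 49 lower, with a median of 0.01 against 0.02. The ILC2/b6 count rests on single libraries: it was 70 without guide library 1, 64 without guide library 2, up to 139 with a control library left out, and 155 with a replicate block. Neighbours of distal non-repeat Bcl11b peaks were called in 71.3% and 23.2% of cases, so LTR neighbours did not exceed them in either line. Some genes were next to an LTR peak and, within 50 kb, to no distal non-repeat Bcl11b peak. Of these, 59.5% (158 tested) and 15.5% (174) were called, close to the backgrounds of 57.8% and 14.5%. Bcl11b peaks within 1 kb of a TSS, in exons or in other repeats excluded no gene, so these genes may have other Bcl11b peaks.

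The split by direction depended on scaling. Of all genes in Scid.adh.2c2, 35.1% were called higher and 22.7% lower (3589 and 2319 genes); after centring each library on its median the numbers were 2466 and 3934, and after quantile normalisation 2443 and 3918. That centring moved the median of all genes from 0.05 to −0.08 on the log2 scale. The split of the LTR neighbours went from 119 and 62 to 95 and 114, or 93 and 109. In ILC2/b6 8.32% were called higher and 6.21% lower (876 and 654), which became 649 and 909, or 686 and 665, and the LTR neighbours went from 64 and 49 to 47 and 73, or 51 and 55. Neighbours of GATA3 MT2_Mm peaks were called in 56.4% (92 of 163) and 16.6% (25 of 151), near the backgrounds.

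Of the 10 called neighbours of Bcl11b LTR peaks with the largest rise in Scid.adh.2c2, 6 are given by library, and the others rose by 2.54 to 3.54 on the log2 scale. An RLTR14 Bcl11b peak lies 4.75 kb before Ly6c2, whose product is a myeloid and memory T-cell surface protein. Ly6c2 was at 0.308 and 0.458 RPKM in the controls and 46.5 and 42.6 RPKM with the guide (log2 difference 5.68 ± 0.10 SE, limma adjusted p = 4.11e-08). Its paralog Ly6c1 is near-identical, so reads may be split between them. Tyrobp, the DAP12 signalling adaptor with an LTR33A peak 19.3 kb before its start in both lines, went from 0.123 and 0.206 RPKM to 11.3 and 11.2 RPKM (4.14 ± 0.10, adjusted p = 1.49e-07). Both guide libraries lay above both controls for each gene. Myeloid marker RNA moved with these genes: the 4-gene list summed to 1.72 to 1.99 RPKM in the controls and 6.15 to 6.74 with the guide, with 1 of 4 (Itgam) at 1 RPKM or more in all libraries and none at 0 in all, while the early T-cell list summed to 1100 to 1127 in the controls and 723 to 734 with the guide. A mast cell list of 4 summed to 21.4 to 23.5 RPKM in the controls and 62.6 to 62.8 with the guide (Cpa3 at 1 RPKM or more in all libraries, Mcpt4 and Fcer1a at 0), and a stroma list of 3 to 5.53 to 5.97 and 1.31 to 1.41 (Pdgfrb at 1 RPKM or more, Col3a1 at 0). Their part in the result was not tested, and in bulk RNA fewer cells of a type and less RNA per cell cannot be told apart.

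Gbp10, an interferon-induced GTPase with RodERV21-int peaks in both lines, went from 29.9 and 26.6 RPKM to 284 and 281 RPKM (3.30 ± 0.06, adjusted p = 3.83e-08); its paralogs are close in sequence. Oas3 went from 1.74 and 1.49 RPKM to 15.5 and 16.0 RPKM (2.94 ± 0.08, adjusted p = 2.66e-07). Prf1, which encodes perforin and has a MTE2a peak in an intron, went from 0.089 and 0.014 RPKM to 2.73 and 2.50 RPKM (2.50 ± 0.12, adjusted p = 2.74e-06). C4a, a complement C4 gene with an LTRIS4 peak 1.98 kb before its start, went from 0.125 and 0.130 RPKM to 3.68 and 3.66 RPKM (2.73 ± 0.10, adjusted p = 7.18e-07), with its near-identical paralog C4b able to share reads. The guide libraries lay above the controls in all 4 genes. Differences are on the log2(RPKM + 0.5) scale, which understates the change of genes near 0.

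Lower genes in Scid.adh.2c2 were led by Fbp1, the gluconeogenic fructose bisphosphatase, with an LTR31 peak 26.7 kb before its start. It was at 33.6 and 37.1 RPKM in the controls and 4.60 and 5.11 RPKM with the guide (−2.74 ± 0.07, adjusted p = 2.08e-07). Syt13, a synaptotagmin with a MTE2b peak, fell from 5.99 and 5.55 to 0.942 and 0.996 RPKM (−2.09 ± 0.09, adjusted p = 1.75e-06). Pdlim4, an actin-associated PDZ-LIM protein with a MTEa peak, fell from 33.7 and 33.2 to 11.7 and 10.7 RPKM (−1.54 ± 0.06, adjusted p = 9.02e-07). No guide library overlapped the controls in these 3 genes.

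In ILC2/b6 the largest rise among these neighbours was Cma1, a mast cell chymase 21.9 kb from an RLTR6-int peak. It stood at 1.93 and 2.50 RPKM in the controls and 24.1 and 24.3 RPKM with the guide (3.20 ± 0.09, adjusted p = 9.33e-06). The summed level of 4 mast cell markers was 20.6 to 20.8 RPKM in the controls and 20.8 to 21.2 with the guide, with 1 of 4 (Kit) at 1 RPKM or more in all libraries and none at 0 in all. The 8 ILC2 markers summed to 8222 to 8386 RPKM in the controls and 5784 to 5936 with the guide, and their part in the results for this line was not tested. Alox5, which makes leukotrienes, with a MTEa peak in an intron, rose from 10.5 and 10.4 to 21.5 and 22.4 RPKM (1.03 ± 0.05, adjusted p = 3.41e-05). Tnfrsf9, the costimulatory receptor 4-1BB, with an RMER20B peak 2.30 kb before its start, rose from 401 and 446 to 712 and 714 RPKM (0.75 ± 0.05, adjusted p = 0.000271). Guide and control libraries did not overlap in any of these 3 genes.

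Among lower genes in ILC2/b6, Dus2 beside the strongest Bcl11b LTR peak went from 5.03 and 4.29 to 2.81 and 2.77 RPKM (−0.65 ± 0.09, adjusted p = 0.00351). Ptpn5, a tyrosine phosphatase near an ORR1D2 peak, fell by 0.93 ± 0.11 (adjusted p = 0.00203). Nmur1, the neuromedin U receptor of ILC2, with an RLTR33 peak 11.2 kb before its start, fell from 57.3 and 58.2 to 41.5 and 42.5 RPKM (−0.46 ± 0.04, adjusted p = 0.000487). The guide libraries lay below the controls in these 3 genes.

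**Figure D5:**
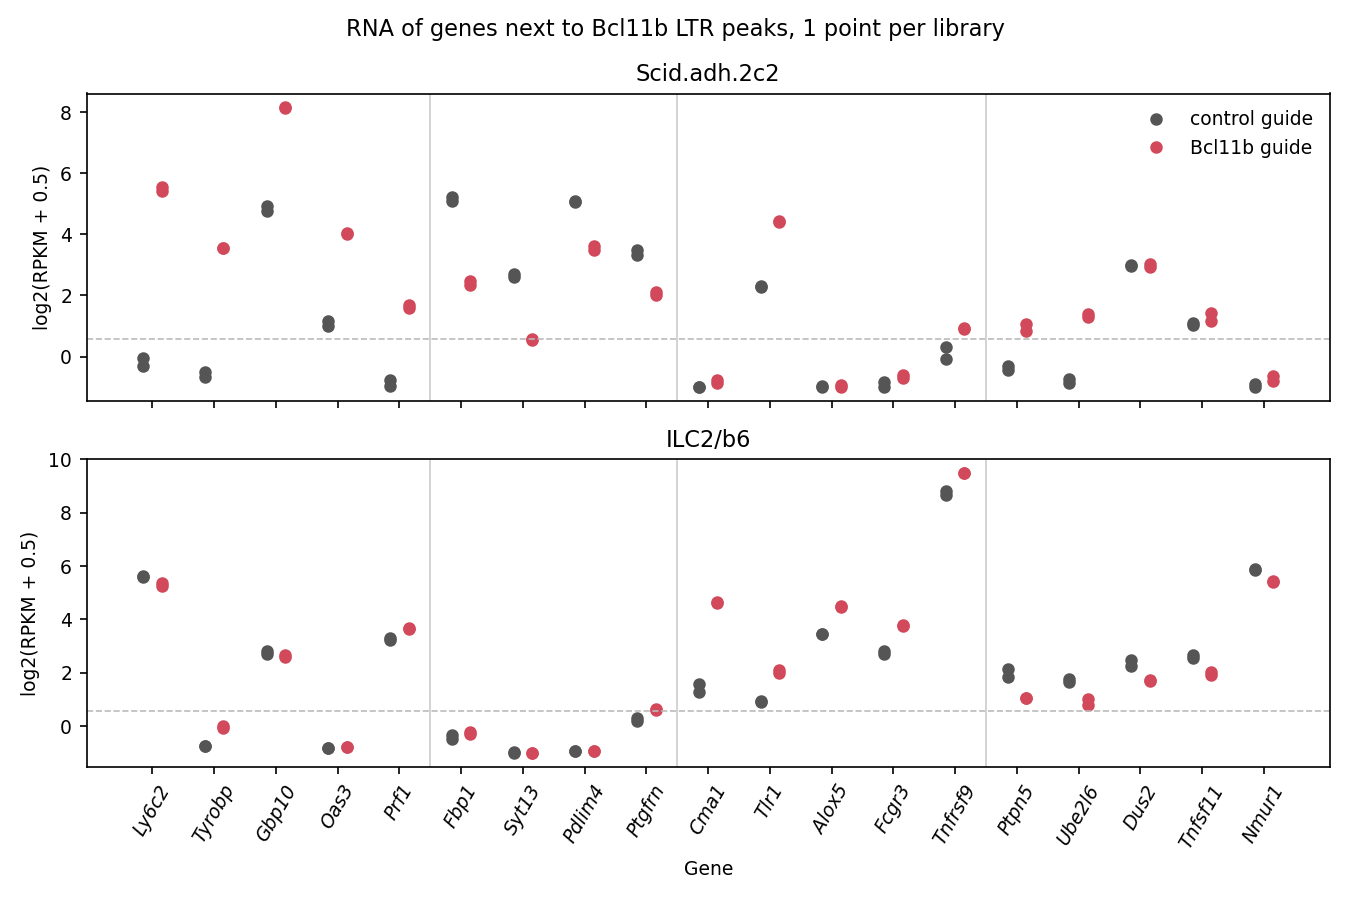
RNA level, log2(RPKM + 0.5), of 19 genes next to Bcl11b LTR peaks in each line, with 1 point per library and control and guide side by side; the dashed line marks 1 RPKM. In Scid.adh.2c2 control and guide points of Ly6c2, Tyrobp and Gbp10 lie 5.68, 4.14 and 3.30 apart on the log2 scale, and in ILC2/b6 those of Cma1 lie 3.20 apart.

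Genes at LTR peaks present in all 8 lists, and at the paired Coro2a peaks, had the following levels. Tle3 was at 20.7 and 20.9 RPKM in the Scid.adh.2c2 controls and 34.6 and 35.4 RPKM with the guide (0.74 ± 0.04, adjusted p = 7.34e-06). In ILC2/b6 its difference was 0.03 ± 0.04 (adjusted p = 0.675). Ly6e, a surface protein of the Ly6 family, went from 424 and 422 to 562 and 563 RPKM in Scid.adh.2c2 (0.41 ± 0.04, adjusted p = 0.000196) and from 420 and 435 to 479 and 486 RPKM in ILC2/b6 (0.18 ± 0.04, adjusted p = 0.0199); the ILC2/b6 call is lost at 0.14 after median-centring. Apobec3 gave 0.17 ± 0.04 in Scid.adh.2c2 (adjusted p = 0.014), a call that depends on scaling, with 0.036 after median-centring and 0.060 after quantile normalisation, both not called. In ILC2/b6 it gave 0.06 ± 0.04 (adjusted p = 0.288). Coro2a in ILC2/b6 was at 76.0 and 74.4 RPKM against 80.5 and 82.4 RPKM (0.12 ± 0.04, adjusted p = 0.0743), and in Scid.adh.2c2 all libraries were under 0.1 RPKM. Genes of the RMER17B cluster had low levels and near-identical copies, so their reads cannot be assigned with confidence: Gm6710 differed by −0.25 ± 0.05 in Scid.adh.2c2 (adjusted p = 0.00559) and by 0.28 ± 0.07 in ILC2/b6 (adjusted p = 0.0393), where the call is lost after quantile normalisation (0.25).

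LTR elements are held silent by factors such as Trim28, a corepressor of zinc-finger proteins, and Ezh2, a histone methyltransferase, and double-stranded RNA is sensed by Ifih1 and Ddx58. A list of 53 such genes was chosen for textbook roles, with earlier results of these data known. In Scid.adh.2c2, 38 of 51 tested (74.5%) were called, 21 higher and 17 lower, against 57.8% of all genes. In ILC2/b6 9 of 50 (18.0%) were, 6 higher and 3 lower, against 14.5%. In Scid.adh.2c2 Zbp1, a nucleic acid sensor, rose by 3.09 ± 0.10 (adjusted p = 3.80e-07), Ddx58 by 2.07 ± 0.05 and Ifih1 by 1.91 ± 0.05. Trim28 fell there by 0.32 ± 0.04 and Ezh2 by 0.34 ± 0.04. In ILC2/b6 Ifih1 rose by 0.54 ± 0.11 (adjusted p = 0.0181), Ddx58 gave 0.28 ± 0.07 (adjusted p = 0.0468; not called after median-centring, 0.25, or quantile normalisation, 0.24), Mphosph8, a subunit of the HUSH silencing complex, fell by 0.38 ± 0.08 (0.0189) and Ezh2 by 0.23 ± 0.04 (0.00937).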

How the data were processed

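Peak lists hold the caller's score and focus ratio, a fraction from 0 to 1, as deposited by the authors per the file headers (HOMER, build mm9). Per the file headers, each list is an IDR (irreproducible discovery rate) set from 2 libraries together, and its scores start at 15 or just above. RNA values are deposited RPKM per gene, per the file headers, in 1 table per line. The submitters' processing notes name Bowtie 1.1.1, HOMER, STAR 2.4.0, RSEM 1.2.25 and edgeR 3.6.8, with no roles. Reads were 50 nt, single-end.

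LTR peaks were taken from the annotation text, and shared peaks by overlap of at least 1 bp. RNA was tested within a table with limma 3.58.1 (R 4.3.3) on log2(RPKM + 0.5), for genes at 1 RPKM or more in at least 2 libraries, with Benjamini-Hochberg adjustment; the difference between lines was tested in 1 fit of all 8 libraries. A gene was called at an adjusted p under 0.05. Scripts were tested on simulated data, where the share of false calls was above the threshold in both lines, so calls near it are less sure. Genes are named by largest difference among called neighbours, the highest peak scores, or as genes of interest. The peaks, gene lists and named genes were chosen with earlier results of these data known.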

Additional observations from a re-analysis of the deposited data

Results flagged for a closer look

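For 34 genes named here, all chosen with their values known, the response to the Bcl11b guide differed between the lines by the interaction term of a limma fit over all 8 libraries (adjusted p from 3.59e-08 for Ly6c2 to 0.0321 for Gm14325). Values are the log2 difference in ILC2/b6 minus that in Scid.adh.2c2, with 2 libraries per group. The response was lower in ILC2/b6 for 21 of them. The first of these were Ly6c2 −5.97, Ly6a −5.19, Tyrobp −3.43, Gbp10 −3.42, Zbp1 −3.19, Ube2l6 −2.97 and Oas3 −2.90. Next came Ifng −2.78, Il13 −2.70, C4a −2.68, Ptpn5 −2.25, Prf1 −2.11, Ddx58 −1.79 and Prex1 −1.75. The remaining ones were Ifih1 −1.37, Tlr1 −0.99, Tnfsf11 −0.87, Tle3 −0.71, Nmur1 −0.69, Dus2 −0.64 and Ly6e −0.24. It was higher in ILC2/b6 for 13. These were led by Cma1 3.01, Fbp1 2.90, Syt13 2.08, Ptgfrn 1.70, Pdlim4 1.54, Amotl1 1.54 and Alox5 1.00. They also included Thy1 0.79, Fcgr3 0.75, Gm6710 0.53, Gm14326 0.47, Gm14325 0.34 and Trim28 0.30. Where a gene lies near 0 in a line, such as Alox5, Cma1 and Fcgr3 in Scid.adh.2c2 or C4a, Oas3 and Syt13 in ILC2/b6, the value rests on the line that has the RNA.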

How the results depend on the processing

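At a score of at least 30 the LTR share was 3.66% and 4.92% for Bcl11b (Scid.adh.2c2, then ILC2/b6), 9.19% for GATA3 in ILC2/b6 and 5.02% and 5.81% for Runx3; sharing between lines was then 22.1% and 12.7% for Bcl11b, 42.3% and 46.9% for GATA3, 20.7% and 6.64% for Runx1 and 10.6% for Runx3 in ILC2/b6, where both lists are thinned. Among distal peaks the shares were 7.36%, 8.02%, 10.7%, 10.8%, 8.30%, 8.22%, 8.75% and 8.94% (Bcl11b, GATA3, Runx1 and Runx3, each Scid.adh.2c2 first). A reciprocal overlap of 50%, and assembled chromosomes without Y (added after seeing the data), moved no share or sharing value by more than its interval. Called neighbours of Bcl11b LTR peaks were 88 and 45 within 10 kb, and 45 in ILC2/b6 without the expression filter. Leaving out 1 library gave 134 to 206 in Scid.adh.2c2 and 64 to 139 in ILC2/b6, with 70 without guide library 1 and 64 without guide library 2 of ILC2/b6. The replicate numbers do not pair the libraries as far as the labels say: replicate differences correlated at 0.0373 in Scid.adh.2c2 and 0.106 in ILC2/b6, over 2 pairs each. With a replicate block the counts were 181 and 155.

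The difference between lines changed sign for Apobec3 (0.0017 median-centred, 0.0044 quantile), Naip5 (0.048 and 0.13; −0.18 to 0.054 with 1 library left out) and Tnfrsf9 (0.055 and 0.45, 0.16 with a pseudocount of 1; −0.26 to 0.15). Ly6a in ILC2/b6 became −0.013 median-centred (−0.031 to 0.075 with 1 library left out), Tle3 in ILC2/b6 −0.0079 median-centred, and Tnfsf11 in Scid.adh.2c2 −0.046 after quantile normalisation. With 1 library left out, signs also crossed for Dus2 in Scid.adh.2c2 (−0.065 to 0.057), Trim28 (−0.044 to 0.0086) and Zbp1 (−0.25 to 0.054) in ILC2/b6, and Zfp971 (−0.24 to 0.026 in Scid.adh.2c2 and −0.014 to 0.22 in ILC2/b6). None of these was called in the fit reported; the cause was not tested.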
